A study of Mus musculus with 6 samples.

Results

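Dctd encodes dCMP deaminase, the enzyme that turns dCMP into dUMP on the route to thymidine nucleotides. It was examined here with 8 other genes of deoxynucleotide metabolism, Tyms, Dut, Dck, Tk1, Rrm1, Rrm2, Dtymk and Samhd1. These 9 genes were picked by symbol from the 52550 genes of the deposited tables, and each symbol matched a single identifier. Dctd was chosen because its level differed between IL-33-treated and untreated cells in these same libraries, so its difference is described below, and no p-value or call is given for the gene. The other 8 were added for their function, with earlier results of these data known. Samhd1 breaks deoxynucleotides down, so the 9 genes are not all enzymes of supply.

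RNA was sequenced from primary keratinocytes of wild type C57BL/6 mice, taken from the epidermis at an age of 0 to 2 days. After 2 days of culture the cells were given recombinant IL-33 for 12 h (3 libraries) or were left without it (3 libraries). The labels do not say what amount of IL-33 was used. They also leave it unsaid whether replicates were separate cultures or litters, so every p-value refers to the spread between libraries as sequenced, and that spread may be technical.

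DNA synthesis needs the 4 deoxynucleoside triphosphates in balanced amounts. Ribonucleotide reductase makes deoxynucleotides from ribonucleotides, and thymidine nucleotides are then built from dUMP, which comes from dCMP deaminase and from dUTPase. A salvage route, run by nucleoside kinases, brings in thymidine and deoxycytidine from outside the cell. Several of these genes are known for high expression in S phase, and basal keratinocytes are the dividing cells of the epidermis.

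The deposited values are estimated counts, and low values place 1 sequenced fragment at about 4 deposited counts, so fragment numbers below are approximate. Library totals ran from 34188173 to 44255925 counts with IL-33 and from 41456441 to 45266298 untreated, and IL-33 replicate 2 was the shallowest. CPM below is the deposited count scaled to library size with TMM factors. The basal keratins Krt5 and Krt14 averaged 19000 and 14600 CPM with IL-33, and 18000 and 14300 CPM untreated. Another basal keratin, Krt15, averaged 0.999 CPM with IL-33 and 1.06 CPM untreated. The 7 basal markers summed to 35300 to 38000 CPM with IL-33 and 35200 to 36300 CPM untreated, with 2 log2 fold changes above 0, 5 below and none passing edgeR's test, 1 at an unadjusted p under 0.05. That 1 was the integrin Itgb4, at 954 ± 90.2 CPM with IL-33 and 1120 ± 9.997 CPM untreated (SD, n = 3 each). The 5 suprabasal markers summed to 14.1 to 17.5 CPM with IL-33 and 16.7 to 17.3 CPM untreated. Their log2 fold changes were above 0 for 1 and below for 4, and none passed edgeR's test. With an unadjusted p under 0.05 were 2 that lay opposite ways, Krt1 at 0.94 and Ivl at -0.49. Such a p was found for 6.74% of all tested genes. The 6 melanocyte markers summed to 1110 to 1210 CPM with IL-33 and 1110 to 1160 CPM untreated. The 6 fibroblast markers summed to 26.5 to 30.98 CPM with IL-33 and 29.7 to 38.1 CPM untreated, and the 3 endothelial markers to 16.1 to 16.7 CPM with IL-33 and 13.5 to 19.2 CPM untreated. Of the 5 fibroblast markers tested, 3 lay above 0 and 2 below, none passing edgeR's test. Col1a1, at a log2 fold change of -1.18, was the 1 with an unadjusted p under 0.05. The 6 immune markers summed to 0.364 to 3.10 CPM with IL-33 and 0.0883 to 0.760 CPM untreated, with Cd3e, Cd207 and Cpa3 at 0 in every library.

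Dctd was lower in every IL-33 library than in any untreated library. It had 27.9, 28.3 and 28.04 CPM with IL-33, against 50.6, 47.6 and 51.7 CPM untreated. The 3 IL-33 libraries lay close together and the groups were far from overlapping. The IL-33 mean of 28.1 ± 0.233 CPM was 0.562 times the untreated mean of 49.97 ± 2.15 CPM (SD, n = 3 each). On the log2 scale the difference was -0.83 (SE 0.068, 95% interval -0.98 to -0.68). The interval takes no account of the choice of Dctd for its difference, so it is a description and not a test. These levels rest on 965 to 1238 deposited counts per IL-33 library and 1969 to 2343 per untreated library, or about 241 to 310 fragments against 492 to 586. Over the whole table, edgeR's quasi-likelihood test called 11 of 15778 tested genes at an adjusted p under 0.05, which is 0.0697%, with 7 (0.0444%) higher and 4 (0.0254%) lower with IL-33. Since Dctd was chosen on this contrast, nothing is read from its own place in that test. In bulk RNA, fewer cells with the transcript and less transcript per cell cannot be told apart.

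**Figure D1:**
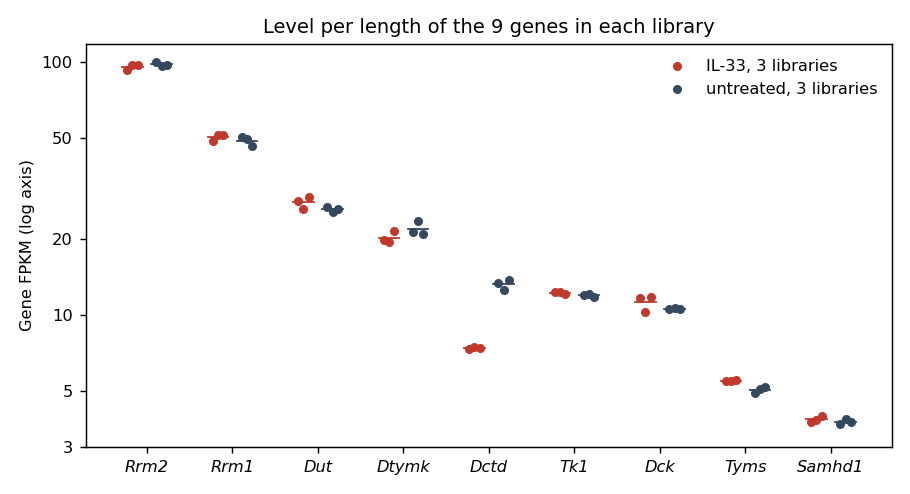
Gene FPKM (fragments scaled to transcript length and library size, log axis) of the 9 genes in each library, with IL-33 libraries in red on the left and untreated libraries in blue on the right of each gene, points for libraries and lines for means. Dctd is the gene whose groups stand clearly apart, at 7.35 to 7.45 FPKM with IL-33 and 12.5 to 13.7 FPKM untreated.

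Dctd (ENSMUSG00000031562.15) lies on the forward strand of mouse chromosome 8, from 48099092 to 48153233 (GRCm38, also called mm10; GENCODE release M21), and no other annotated gene overlaps it. Of its 7 annotated transcripts, 6 had counts in at least 1 library and 1, Dctd-206, was at 0 in every library. Dctd-201, Dctd-203 and Dctd-205 carry the same coding sequence of 552 bases and differ outside it. Dctd-203 and Dctd-201 start 55 bases apart, at 48109958 and 48110013. Dctd-202, Dctd-204 and Dctd-207 start a little further downstream, at 48110189, 48110165 and 48110162. Dctd-205 starts at 48099092, which is 10866 bases upstream of Dctd-203, with a first exon of 50 bases that no other Dctd transcript contains, and it ends earlier, at 48140609. Dctd-207 is annotated as a target of nonsense-mediated decay, the pathway that degrades messages with an early stop. Dctd-204 is annotated as a retained intron, and its last exon runs from 48137258 to 48137691, 317 bases past the end of the same exon in Dctd-203. Dctd-202 is a processed transcript with no annotated reading frame.

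**Figure D2:**
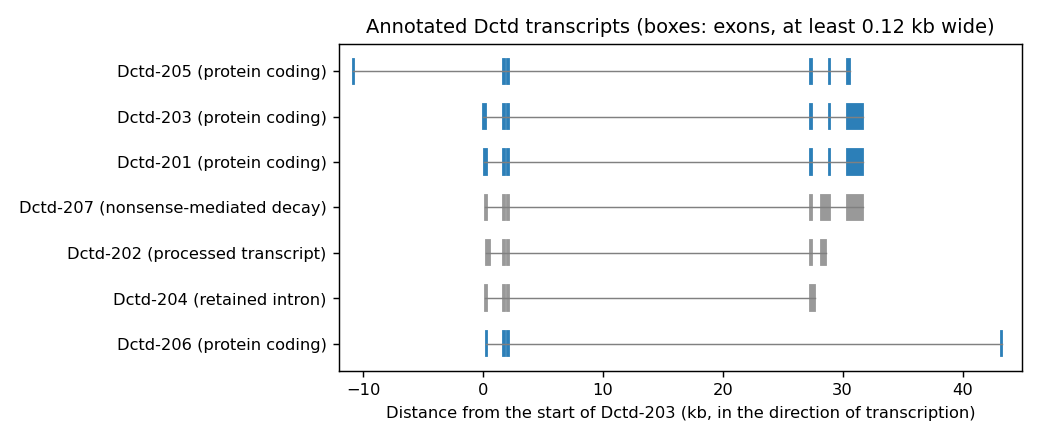
Exons (boxes) and introns (lines) of the 7 annotated Dctd transcripts, against distance in kb from the start of Dctd-203, with transcripts annotated as protein coding in blue and the others in grey. Dctd-205 is the transcript with a start far upstream of the rest, 10866 bases before Dctd-203.

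The 250 bases before each of these starts are shown because counts were assigned to the upstream start in the IL-33 libraries and in no untreated library. Both are from RefSeq on GRCm38.p6, forward strand, 5′ to 3′. Capitals mark the word CCAAT, the core of the site bound by the factor NF-Y, searched on both strands. The upstream window is chr8:48098842-48099091, before the gene, and the downstream window is chr8:48109708-48109957, inside the first intron of Dctd-205.
Upstream start, Dctd-205: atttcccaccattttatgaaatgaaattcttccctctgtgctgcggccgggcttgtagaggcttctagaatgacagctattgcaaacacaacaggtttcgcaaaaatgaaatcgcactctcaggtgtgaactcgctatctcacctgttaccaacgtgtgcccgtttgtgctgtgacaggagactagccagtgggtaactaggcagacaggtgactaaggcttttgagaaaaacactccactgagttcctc
Downstream start, Dctd-203: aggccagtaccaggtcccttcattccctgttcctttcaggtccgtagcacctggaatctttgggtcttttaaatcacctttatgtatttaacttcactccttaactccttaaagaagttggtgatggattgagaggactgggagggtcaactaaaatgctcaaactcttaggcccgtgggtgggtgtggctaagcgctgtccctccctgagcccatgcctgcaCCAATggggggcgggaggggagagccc
The downstream window held 1 CCAAT word, 27 to 23 bases before the start, and the upstream window held none. That word was present in 33.8% of 32851 RefSeq promoter windows of the same length. Neither window held any of the E2F words TTTCCCGC, TTTGGCGC or TTTCGCGC on either strand, which 1.5% of all windows held. The GC content was 47.2% upstream and 52.4% downstream, with 7 and 4 CpG dinucleotides.

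Most of the lower level of Dctd lay in Dctd-203 and Dctd-207. Dctd-203, the most abundant, had 11.7, 17.6 and 11.9 CPM with IL-33, against 32.9, 25.4 and 29.7 CPM untreated. All IL-33 libraries were lower than all untreated ones. The decay-annotated Dctd-207 had 5.73, 3.82 and 5.82 CPM with IL-33, against 13.97, 11.5 and 9.89 CPM untreated, again without overlap. The counts assigned to Dctd-201 ranged from 0 to 179 with IL-33 and from 0 to 331 untreated, with a 0 in 1 library of each group. As Dctd-201 and Dctd-203 nearly coincide, their sum does not depend on how reads were divided between them. It was 15.7, 17.6 and 13.2 CPM with IL-33, against 32.9, 32.7 and 37.03 CPM untreated, or 0.452 times the untreated mean. Dctd-202 had 2.89 ± 1.26 CPM with IL-33 and 3.53 ± 0.661 CPM untreated (SD, n = 3 each), with overlapping groups.

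Another pair of Dctd transcripts lay the other way. Dctd-205, with the upstream start, had 44, 62 and 112 deposited counts with IL-33, against 0, 0 and 0 untreated. On the fragment scale that is 11, 15.5 and 28 fragments with IL-33. Its mean of 1.79 ± 0.768 CPM with IL-33 was 6.51 times the mean untreated floor, set at 3 fragments, or 12 deposited counts, per library. The lowest IL-33 library was 3.45 times the highest untreated floor. The floor covers counting error only. The retained-intron transcript Dctd-204 had 141, 102 and 96 deposited counts with IL-33, against 8, 22 and 28 untreated. These were 3.21, 2.99 and 2.17 CPM with IL-33, and 0.179, 0.532 and 0.618 CPM untreated. Dctd-204 and Dctd-205 were thus higher in every IL-33 library while the gene as a whole was lower.

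Together, and grouped so after their values were seen, these 2 transcripts held 15.1%, 16.99% and 16.8% of Dctd counts with IL-33, against 0.353%, 1.12% and 1.20% untreated. Without them Dctd stood at 23.7, 23.5 and 23.3 CPM with IL-33, against 50.5, 47.04 and 51.1 CPM untreated, which is 0.474 times. The difference in mean CPM for the whole gene was -21.9. Dctd-203 gave -15.6 of it, Dctd-207 -6.65, Dctd-201 -3.10 and Dctd-202 -0.641, while Dctd-204 and Dctd-205 gave 2.35 and 1.79. The transcripts with the full coding sequence summed to 16.7, 19.4 and 15.7 CPM with IL-33, against 32.9, 32.7 and 37.03 CPM untreated. Those without it summed to 11.1, 8.95 and 12.3 CPM with IL-33, against 17.7, 14.8 and 14.7 CPM untreated. Neither class overlapped between groups, so the lower level was found in both. The share with the full coding sequence was 61.5% ± 6.33 with IL-33 and 68.5% ± 3.32 untreated (SD, n = 3 each), with overlapping groups (exact two-sided permutation p = 0.20).

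Across the whole transcript table, 12 of 40163 tested transcripts passed edgeR's test, which is 0.0299%, and no Dctd transcript was among them. The edgeR adjusted p was 0.353 for Dctd-205, 0.534 for Dctd-203, 0.615 for Dctd-204 and 0.685 for Dctd-207, with unadjusted p under 0.05 in these 4, which 4.24% of tested transcripts had, and not in Dctd-201 or Dctd-202. DESeq2, given all 131146 transcripts without the low-count filter, called 540, the same 4 among them. The number left after its own filtering was not recorded, so no share is given. Transcripts of Dctd share the contrast on which the gene was chosen, so these p-values describe them and support nothing. A transcript at 0 in every untreated library and above 12 counts in every IL-33 library was found 43 times in 40163, which is 0.107%, and the reverse 51 times, which is 0.127%. The shares of Dctd-204 and Dctd-205 did not overlap between groups (exact two-sided permutation p = 0.10 for each, the smallest that 3 against 3 allows). Shares that do not overlap were found for 8.84% of 53975 transcripts of genes with at least 100 counts in each library and at least 2 transcripts above 0. Transcript counts are estimates that divide shared reads, and Dctd-205 is told from the others by 50 bases of its own and its early end.

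**Figure D3:**
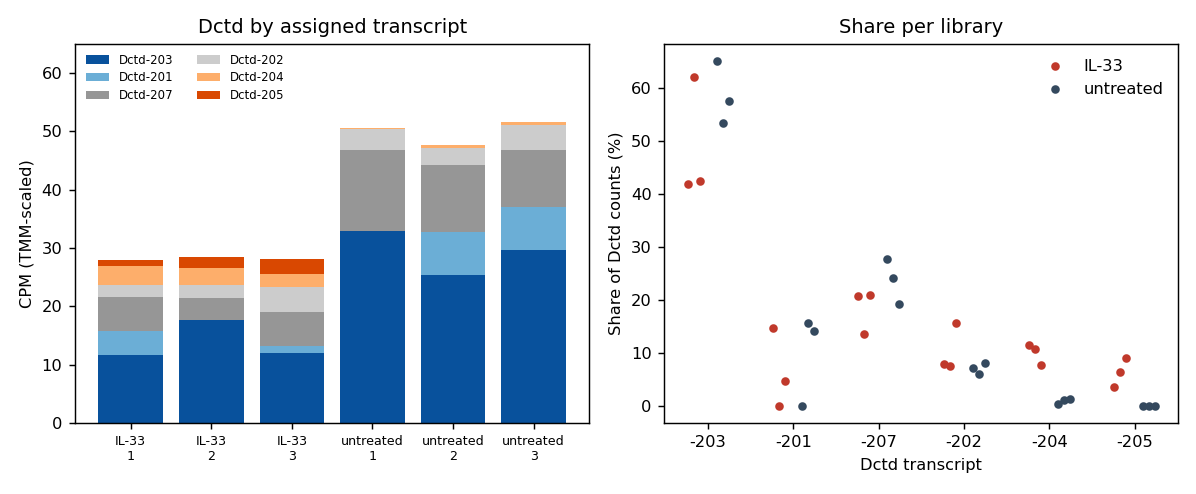
Left, Dctd CPM in each library (bars, starting at 0), divided by assigned transcript. Right, the share of Dctd counts held by each transcript, with IL-33 libraries in red on the left and untreated libraries in blue. The IL-33 bars are about 28 CPM high against 47.6 to 51.7 CPM untreated, and Dctd-205 is present in the IL-33 bars alone.

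The other 8 genes did not pass the test, and their fold changes were small. Their log2 fold changes ran from -0.11 to 0.12, 6 above 0 and 2 below, with edgeR adjusted p from 0.778 to 0.947. None had an unadjusted p under 0.05, which 6.74% of all tested genes had, and DESeq2 and limma-voom called none of the 8. All 9 genes were well above the filter on low counts, with at least 965 counts in each library. The 95% intervals of the 8 reached from 0.828-fold to 1.21-fold at their widest. The median log2 fold change of the 8 was 0.045, beside 0.002 over all tested genes.

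**Figure D4:**
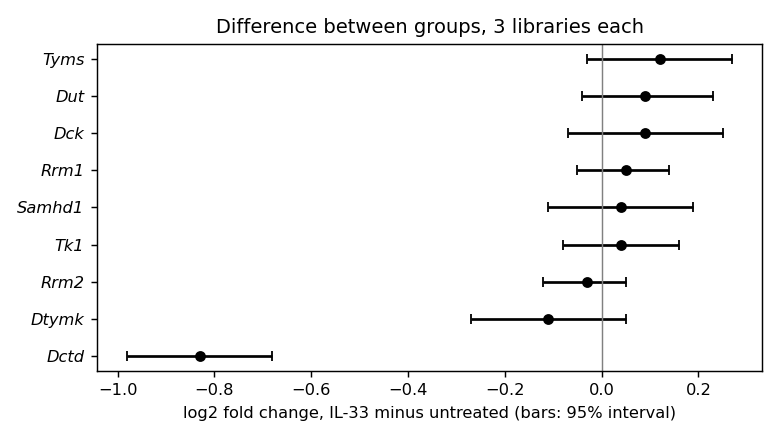
Log2 fold change of each of the 9 genes, IL-33 minus untreated, with 95% intervals from edgeR's fit over 3 libraries a group. The 8 other genes lie between -0.11 and 0.12 with intervals that include 0, and Dctd, chosen for its difference, lies at -0.83.

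The subunits of ribonucleotide reductase had the highest levels of the 9 genes per length (FPKM). Rrm1, its large subunit with the catalytic and regulatory sites, had 595, 628 and 629 CPM with IL-33, against 620, 607 and 567 CPM untreated. Its groups overlapped (log2 difference of 0.05, with an interval at 95% of -0.05 to 0.14; edgeR adjusted p = 0.884). Rrm2, the small subunit with the radical cofactor, had 286, 300 and 301 CPM with IL-33, against 308, 299 and 300 CPM untreated. It overlapped as well (log2 difference of -0.03, with an interval at 95% of -0.12 to 0.05; edgeR adjusted p = 0.901).

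Of the other enzymes that yield dUMP or lead from it to thymidine nucleotides, Dut and Tyms had means above the untreated ones and Dtymk a mean below. Dut, the dUTPase that yields dUMP and keeps uracil out of DNA, had 75.1, 70.5 and 78.3 CPM with IL-33, against 71.2, 68.8 and 69.9 CPM untreated (edgeR adjusted p = 0.808). Tyms, thymidylate synthase, which methylates the dUMP that dCMP deaminase supplies, had 36.97, 37.1 and 37.7 CPM with IL-33, against 33.3, 34.5 and 35.2 CPM untreated. Its groups did not overlap, but the difference of 0.12 on the log2 scale (95% interval -0.03 to 0.27) did not pass (edgeR adjusted p = 0.778). Dtymk, the kinase that makes dTDP from dTMP, had 57.9, 56.9 and 62.8 CPM with IL-33, against 62.1, 68.7 and 61.2 CPM untreated. Its groups overlapped, with a log2 fold change of -0.11 (95% interval -0.27 to 0.05; edgeR adjusted p = 0.807).

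Of the salvage kinases, Tk1 and Dck both had means slightly above the untreated ones. Tk1, which phosphorylates thymidine, had 71.05, 71.3 and 70.4 CPM with IL-33, against 69.1, 69.9 and 68.4 CPM untreated (edgeR adjusted p = 0.927). These groups did not overlap, and the difference was 0.04 on the log2 scale. Dck, which phosphorylates deoxycytidine to dCMP, the substrate of dCMP deaminase, had 48.5, 43.3 and 49.7 CPM with IL-33, against 44.2, 44.8 and 44.1 CPM untreated. IL-33 replicate 2 was lower than every untreated library (edgeR adjusted p = 0.843). Groups that do not overlap were found for 2 of the 8 genes, Tyms and Tk1, and for 13.7% of all tested genes.

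Samhd1, which hydrolyses deoxynucleoside triphosphates, had 38.4, 39.3 and 40.7 CPM with IL-33, against 37.5, 39.6 and 38.3 CPM untreated. The groups overlapped, with a log2 fold change of 0.04 (95% interval -0.11 to 0.19; edgeR adjusted p = 0.947). The spread between libraries of a group, as the SD over the mean, was 0.626% to 7.26% over the 9 genes. It was 0.828% with IL-33 and 4.29% untreated for Dctd.

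Per length, the place of Dctd among the 9 genes differed between the groups on the gene FPKM scale. With IL-33 it had rank 7, at 7.39 ± 0.0535 FPKM, below Tk1 at 12.3 ± 0.0968 FPKM and Dck at 11.2 ± 0.806 FPKM, and above Tyms at 5.49 ± 0.0429 FPKM (SD, n = 3). Untreated it had rank 5, at 13.2 ± 0.596 FPKM, above Tk1 at 11.9 ± 0.109 FPKM and Dck at 10.5 ± 0.0702 FPKM. The rest kept 1 order in both groups, Rrm2, Rrm1, Dut, Dtymk, Tk1, Dck, Tyms and Samhd1. No neighbours in either order had overlapping ranges over the 3 libraries. The ratio of Dctd to Tyms, the next enzyme of the route, was 1.35, 1.36 and 1.33 in FPKM with IL-33, against 2.72, 2.47 and 2.63 untreated. The ratio of Dctd to Dck, which makes its substrate, was 0.661 ± 0.0542 with IL-33 and 1.25 ± 0.0646 untreated (SD, n = 3 each). Tyms and Dck differed little between groups, so these ratios and the change of rank restate the difference for which Dctd was chosen. They are no further result.

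The order depended on how length was counted. When the FPKM of the transcripts of each gene were summed, Rrm1 came first at 140 FPKM with IL-33 and 135 FPKM untreated, and Rrm2 next at 123 FPKM with IL-33 and 125 FPKM untreated. On that scale Dctd had rank 6 in both groups, at 15.95 ± 0.566 FPKM with IL-33 and 22.3 ± 1.27 FPKM untreated (SD, n = 3 each), between Dut and Dck. The drop of Dctd below Tk1 and Dck was therefore seen in gene FPKM and not in summed transcript FPKM. In CPM, Dctd was above Dck untreated (49.97 against 44.3) and below it with IL-33 (28.1 against 47.2). Tk1 was above Dctd in CPM in both groups. The lower level of Dctd with IL-33 was present on every scale.

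Of the other 8 genes, 3 drew nearly all their counts from a single transcript. The main transcripts of Dck, Rrm1 and Rrm2 held at least 99.3% of their genes' counts on average in either group. The main transcript of Tk1 held 89.1% ± 7.70 with IL-33 and 89.01% ± 4.94 untreated, and Tyms-201 77.7% ± 4.09 with IL-33 and 77.2% ± 4.34 untreated (SD, n = 3 each). Tyms-204 held 12.2% with IL-33 and 11.9% untreated. Dut was divided between Dut-201, at 65.8% with IL-33 and 64.1% untreated, and Dut-202, at 34.1% with IL-33 and 35.9% untreated. Dtymk was divided between Dtymk-202, at 63.6% with IL-33 and 66.3% untreated, and Dtymk-201, at 29.8% with IL-33 and 26.5% untreated. The least steady split was that of Samhd1, whose main transcript held 67.1% ± 13.9 with IL-33 and 73.5% ± 6.12 untreated. Its transcript ENSMUST00000109549.2 had 166, 617 and 156 counts with IL-33, against 80, 253 and 139 untreated, with IL-33 replicate 2 far above the rest. None of these transcripts passed edgeR's test on the transcript table (adjusted p = 0.9996 for each).

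Tk1 shares 83 exonic bases with Afmid, a gene on the opposite strand, and the sources used here do not say whether counting used strand. Afmid had 49 to 209 counts with IL-33 and 68 to 217 untreated, far below the 2428 or more of Tk1. The pseudogene Tyms-ps had 0 to 6 counts. Of the 9 genes, 4 had a CCAAT word in the 250 bases before an annotated RefSeq start, Dctd, Rrm1, Rrm2 and Dtymk. None had one of the 3 E2F words there, which 1.5% of all windows held. Other forms of the E2F site were not searched, so their absence is not shown.

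The wider set of nucleotide genes held no call. Of 96 listed genes of pyrimidine and purine synthesis, salvage, folate supply and pool control, 85 were tested, with 33 log2 fold changes above 0 and 52 below, and a median of -0.025. None passed edgeR's test, and DESeq2 and limma-voom called none. The 7 with an unadjusted p under 0.05 made up 8.24%, beside 6.74% of all tested genes. None had a log2 fold change as low as that of Dctd, which is no result, as Dctd was chosen for its difference. Over all tested genes, 95.5% had a smaller absolute log2 fold change than Dctd. Cda, the deaminase that acts on free cytidine and deoxycytidine, was at 0 in every library.

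Among the synthesis genes, Cad, which carries out the opening steps of pyrimidine synthesis, had 376 ± 12.7 CPM with IL-33 and 411 ± 3.68 CPM untreated (SD, n = 3 each; edgeR adjusted p = 0.637). The 12 pyrimidine synthesis genes had 4 log2 fold changes above 0 and 8 below. The 23 tested purine genes had 10 above and 13 below, and the one with the smallest p was Aprt, which salvages adenine, at 172 ± 5.33 CPM with IL-33 and 189 ± 4.79 CPM untreated (edgeR adjusted p = 0.704). The 13 tested genes of salvage, transport and breakdown had 6 above and 7 below. The nucleoside transporter Slc29a2 had a log2 fold change of -0.35 (edgeR adjusted p = 0.650), and the uridine-cytidine kinase Uck2 one of -0.09 (edgeR adjusted p = 0.740).

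The 17 tested folate genes had 5 log2 fold changes above 0 and 12 below. The folate carrier Slc19a1 stood at 46.6 ± 1.41 CPM with IL-33 and 52.96 ± 4.17 CPM untreated (SD, n = 3 each; edgeR adjusted p = 0.740). The 20 tested genes of pool control and uracil repair had 8 above and 12 below. Nt5e, the cell-surface enzyme that makes adenosine from AMP, had a log2 fold change of -0.18 (edgeR adjusted p = 0.744).

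Most genes that mark dividing cells had log2 fold changes above 0, without passing the test. Of 30 S phase genes, 22 lay above 0 on the log2 scale (median 0.029), and none passed edgeR's test, with 4 at an unadjusted p under 0.05 and none called by DESeq2. Over all tested genes 6.74% had such a p, and DESeq2 called 71 genes. The S phase genes summed to 3550, 3440 and 3600 CPM with IL-33, against 3330, 3360 and 3360 CPM untreated. The largest log2 fold change of this list was that of Fen1, at 0.995, far from the median. Its p was not among the 3 smallest of the list. The part of Fen1 in the sums was not examined, so they need not reflect a broad difference. Chaf1a, a subunit of the chromatin assembly factor, stood at 161 ± 4.28 CPM with IL-33 and 141 ± 7.12 CPM untreated (SD, n = 3 each; edgeR adjusted p = 0.575). Of 17 mitosis genes, 15 were above 0, with a median of 0.10, 6 at an unadjusted p under 0.05 and none passing edgeR's test, while DESeq2 called Cenpe and Mki67. Cenpe, a kinetochore motor, had a log2 fold change of 0.38 (edgeR adjusted p = 0.307), and the proliferation marker Mki67 one of 0.26 (edgeR adjusted p = 0.319). Over all tested genes 50.5% were above 0. The part of cell division in the level of Dctd was not tested.

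**Figure D5:**
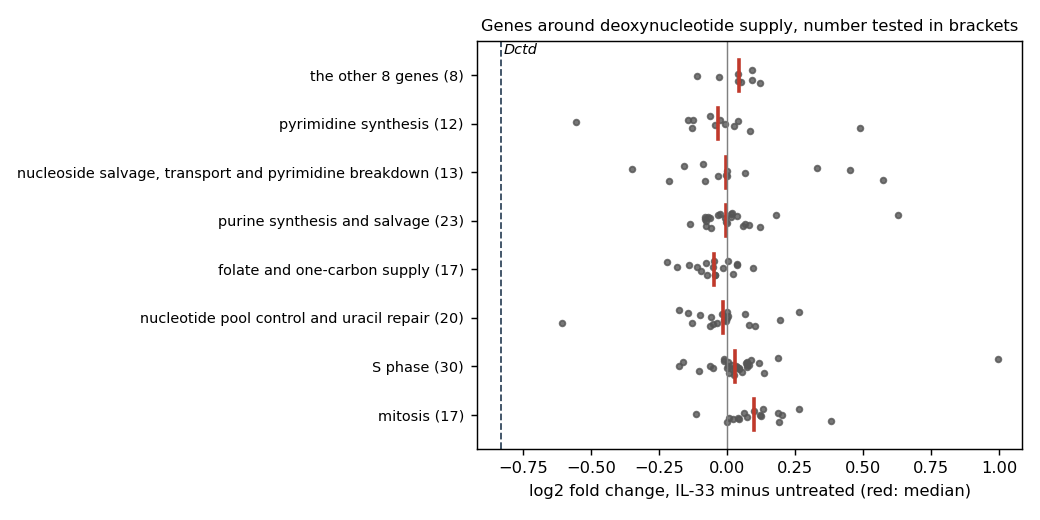
Log2 fold change, IL-33 minus untreated, of each tested gene (points) in the other 8 genes and in 7 lists around them, with the median of each list in red and the value of Dctd as a dashed line. No point lies at or below Dctd, which was chosen for its difference, and the medians lie between -0.049 and 0.10.

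By level across the 6 libraries, the genes most like Dctd were Dhrs7, Evc2, Ttc39c, Zfp800 and Pdzd11. Likeness was Pearson's r of log2 CPM over 6 libraries among 9748 other genes, and was 0.9916, 0.9891, 0.9874, 0.9852 and 0.9833 for these. As the rule picks genes that separate the groups as Dctd does, their lower level with IL-33 is no result. Dhrs7, a short-chain dehydrogenase, had 20.5, 21.02 and 20.8 CPM with IL-33, against 25.4, 24.4 and 24.7 CPM untreated. The zinc finger gene Zfp800 had 19.5, 19.3 and 17.3 CPM with IL-33, against 31.04, 28.03 and 32.02 CPM untreated. Of the 9748, 109 had an r above 0.9. None of the other 8 genes was among them. Dtymk and Rrm2 had r of 0.5803 and 0.5589, and the remaining 6 were below 0, down to -0.9111 for Tyms. Because Dctd separates the groups, r over 6 libraries largely follows the group, whatever the size of a gene's difference. Tyms differed by only 0.12 on the log2 scale and did not pass edgeR's test. These r values are therefore no result either.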

How the data were processed

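Messenger RNA libraries of mouse keratinocytes, 3 with IL-33 and 3 untreated, were grouped by their source labels. Per the submitters' processing notes, the tools were StringTie 1.3.4d, HISAT2 2.1.0, DESeq2 1.18.1 and FastQC 0.11.7 and the build mm10, with no roles. The deposited estimated counts per gene and per transcript are whole numbers, so none was rounded. In each library they were proportional to FPKM times exon length, and rebuilt low values piled up at multiples of 4 (in untreated replicate 1, 1382 transcripts lay within 0.125 of 4, against 405 at 3 and 318 at 5), though also at 2 (771, beside 790 at 8), so the scale is approximate. On that scale libraries hold 8547043 to 11316574 fragments. Floors cover counting error only. The deposited FPKM are fragments scaled to transcript length and library size, per the file headers. Of 52550 gene identifiers, 52403 matched a symbol, and 97.16% of transcript identifiers are in GENCODE M21 with the same version. The annotation release is not stated in the labels or headers.

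The main test was edgeR 4.0.16 (R 4.3.3), quasi-likelihood, TMM, filterByExpr at a minimum count of 10, fitted on all genes or all transcripts, with Benjamini-Hochberg adjustment and a threshold of 0.05. Transcript CPM use the gene table's scaling. DESeq2 1.42.0, limma 3.58.1, other scalings and filters, FPKM with a pseudocount, a replicate block and left-out libraries were alternatives. The members, gene lists and tests were chosen with earlier results of these data known. Named genes were all members, every Dctd transcript with a count, member transcripts with at least 10% of their gene, up to 3 genes of smallest p per list, and the 5 genes most like Dctd with a mean log2 CPM of at least 3. A gene that this rule names is not reported here.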

Additional observations from a re-analysis of the deposited data

How the results depend on the processing

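The log2 fold change of Dctd ran from -0.87 to -0.76 over 18 alternatives, which use the libraries it was chosen on. None of the other 8 genes passed or changed direction under any of the same 18. The number of genes called was 71 with DESeq2, 17 with no low-count filter, 4 with limma on FPKM at each of 3 settings, and 6 at an adjusted p under 0.01. It ran from 11 to 90 when single libraries were left out, highest without IL-33 replicate 3, with 20 when IL-33 replicate 1 and 18 when untreated replicate 3 was dropped. The number of transcripts called was 540 with DESeq2 and 26 with limma on FPKM, and ran from 6 to 28 with single libraries left out, lowest without untreated replicate 2 and highest without IL-33 replicate 3, with 7 without IL-33 replicate 1. Among its 540 transcripts, out of 131146 given to it, DESeq2 called Dctd-203, Dctd-204, Dctd-205 and Dctd-207 (adjusted p = 0.0177, 0.00118, 3.31e-07 and 0.0341). No other alternative called a Dctd transcript. As the gene was chosen on this contrast, these p-values describe its transcripts and support nothing. From transcript FPKM, the shares of Dctd-204 and Dctd-205 were higher with IL-33 by 17.8 and 12.3 percentage points, and the difference for Dctd-203 was -19.7 percentage points. The cause of these differences was not tested. Same-numbered libraries did not deviate together (correlations of 0.071, 0.030 and -0.046 over 9749 genes). The other pairs of an IL-33 and an untreated library ran from -0.142 to 0.11. With 3 libraries a group, this cannot show whether same-numbered replicates were prepared together. With the replicate number as a block, 8 genes and 0 transcripts were called. Depth limits the rarer Dctd transcripts, with 11 to 28 fragments for Dctd-205 in the IL-33 libraries and 8 to 28 deposited counts for Dctd-204 in the untreated ones.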
